A study of Mus musculus with 34 samples.

Results

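RNA of 7 mouse liver tumors carrying a c-Myc transgene was compared with RNA of 3 normal control livers, 10 arrays of the 34 in the series, chosen by their sample titles. The labels call the tumors end-stage, individual mouse tumors, give c-Myc as their only transgene and 0 weeks on doxycycline, the drug that turned the transgenes off in other groups. The control livers carried no transgene and also had 0 weeks on doxycycline. The sources used here do not give age, sex or strain of the sampled mice or the promoter that drives the transgene. One number recurs in the names of the files of tumors 3 and 4, and whether both came from 1 animal is not known. Each tumor and liver is called a biological replicate, and the p-values measure the spread between these samples.

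Each array carried the sample in Cy3 beside a Cy5-labelled pool of liver RNA from male and female C57BL/6 mice. Values are log2 ratios of the sample to this reference, so that 0 is the level of the pooled liver. Differences are tumor mean minus control mean on the log2 scale, with the standard error (SE) and the Benjamini-Hochberg adjusted p of limma over 19353 genes. A gene past an adjusted p of 0.05 is called higher or lower, or said to have risen or fallen. In Cy3, 58.5% to 68.0% of probes were well above background in the controls and 52.7% to 72.1% in the tumors. Precision is limited by how many arrays there are. All 3 controls and tumor 1 were read on one scanner and tumors 2 to 7 on another, on days that held no control. A fit within the first scanner, tumor 1 against the controls, is therefore given beside many of the lists, with the lone tumor assumed to vary like the controls. On all 10 arrays the liver reference gave hepatocyte marker genes a median signal percentile between 98.3 and 99.3. In bulk tissue, fewer cells of a type and less RNA per cell cannot be told apart.

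Myc is a transcription factor that binds DNA at E-box sequences together with its partner Max. It is known for raising the machinery of growth: ribosome production, nucleotide and polyamine synthesis, and entry into the cell cycle. Adult hepatocytes are quiescent cells specialised in plasma protein secretion, bile acid and drug metabolism and urea synthesis, and they share these tasks by position between the portal and the central vein of the lobule.

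Myc itself was read at 3 probes. The sequences of the 2 that were higher in the tumors are shown, since the rise of Myc is read from them. Capitals mark the TAA stop codon that ends the reading frame, and the first probe is printed up to that codon, its first 47 of 60 bases.
A_52_P108346: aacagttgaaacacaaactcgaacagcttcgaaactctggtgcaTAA
A_52_P278549: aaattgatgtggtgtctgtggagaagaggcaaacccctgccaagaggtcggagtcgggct

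At Myc probe A_52_P108346 the controls stood at 0.08, 0.25 and -1.36 and tumors 1 to 7 at 2.54, 5.50, 6.11, 6.39, 2.10, 6.21 and 5.26. The value of tumor 1 is a saturated spot and so at least this. Myc probe A_52_P278549 read -0.69, 0.88 and 0.67 in the controls and 3.15, 4.59, 5.16, 4.71, 2.41, 4.38 and 4.22 in the tumors. At both probes all 7 tumors lay above all 3 controls, and tumor 5 was the lowest tumor. The differences were 5.22 (SE 0.95, limma adjusted p = 0.00266) and 3.80 (SE 0.57, adjusted p = 0.000977), where 16.6% of 28805 probes were called higher. Within the first scanner, where tumor 1 is the only tumor, the first was at least 2.89, a lower bound because of the saturated spot, and the second 2.86 (adjusted p = 0.0584). Myc probe A_51_P102096 did not share the rise: it read -0.59 ± 0.73 (SD, n = 7) in the tumors and -0.26 ± 0.39 (SD, n = 3) in the controls, a difference of -0.33 (SE 0.42, adjusted p = 0.584). At this probe tumor 5 was the highest of the 10 arrays, at 0.93.

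Of the 19353 genes, 5908 were called (30.5%), 3081 higher (15.9%) and 2827 lower (14.6%), and 5436 (28.1%) had groups that did not overlap. The median difference over all genes was -0.04. The number called rested in part on single controls: it was 3067 without control 3. It was 2685 within the first scanner and 331 (61.6% of them higher) among the arrays of the default background protocol, which leaves 1 control. With the scanner as a block it was 765, and with the scan day as a block 895; of the genes called and named in this text 76 and 95 lost their call in these fits, and 1 gene, S100a8, turned its direction. With the scanner as a block the difference is that of tumor 1 from the controls, since the other scanner read no control. With the scan day as a block, fitted over all 34 arrays, it is that of tumor 1 from control 2, scanned on the same day. Controls 1 and 3 were also the only arrays with a local background protocol. Lists of genes are read against the shares of the main fit, 15.9% higher and 14.6% lower. A list with about that share of its members called in a direction stands at the background. Counts from the first scanner's fit or without a control have a lower background, since fewer genes were called there. Without control 3, 1697 of 19341 genes were higher and 1370 lower. These numbers were 2341 and 1814 without control 1, and 2089 and 1915 without control 2. Counts of 3 or fewer members called in a direction moved by at most 2 when single arrays were left out, apart from those stated and from acute phase genes, of which 4 fell without control 1. Differences of genes dim in the liver reference were smaller with another background correction, normexp: Igf2bp3, a fetal RNA-binding protein gene, changed by 3.85 there, against 6.97.

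**Figure D1:**
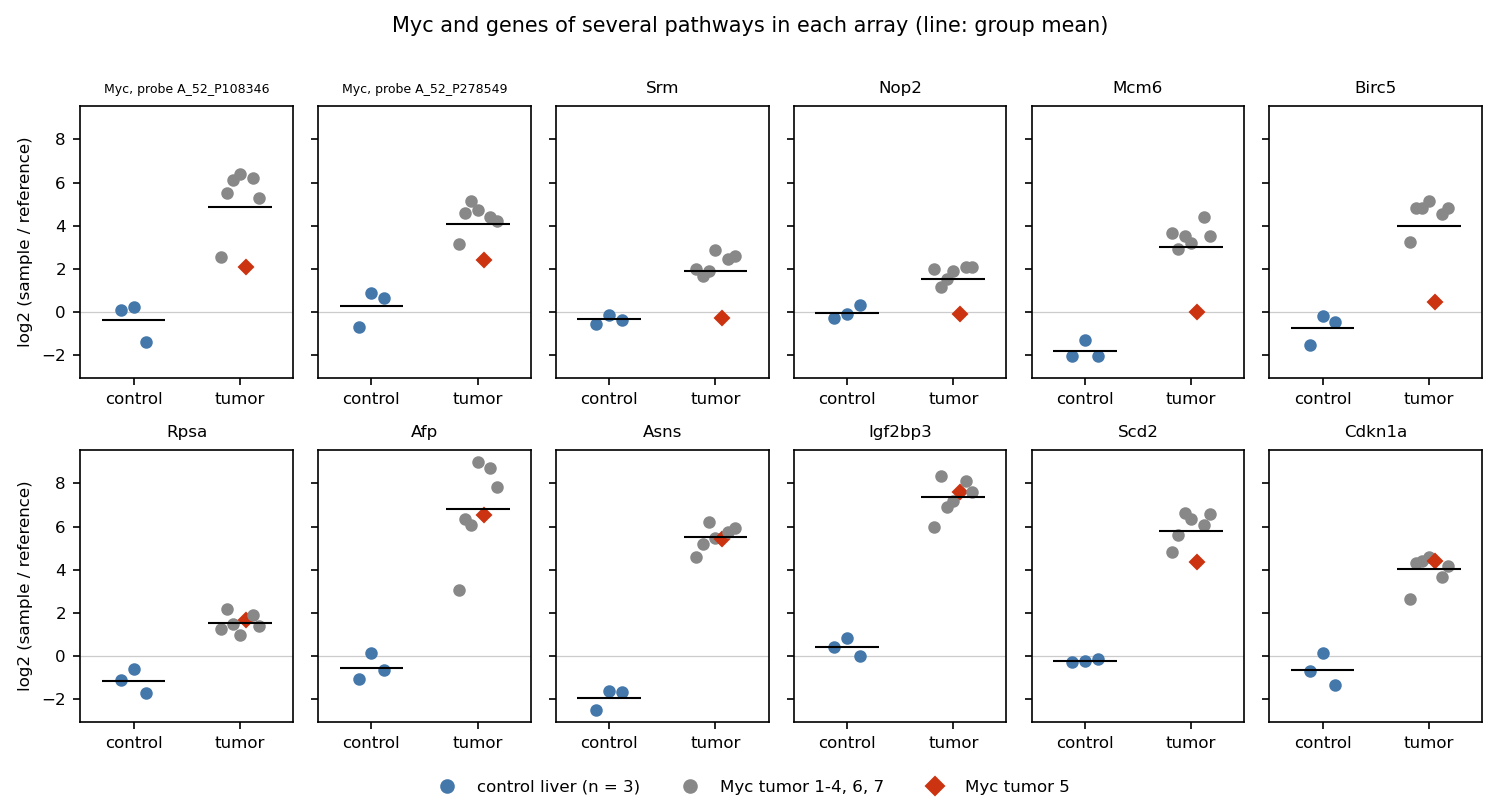
Log2 of sample over liver reference on each array for 2 Myc probes and 10 genes, with the 3 control livers in blue, 6 Myc tumors in grey, Myc tumor 5 as a red diamond and the group mean as a line. Tumor 5 is the lowest tumor at both Myc probes (2.10 and 2.41), lies with the controls for Srm (-0.28) and Nop2 (-0.07), and lies with the other tumors for Afp (6.55), Asns (5.42) and Cdkn1a (4.39).

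The Myc network list, 14 measured genes of Myc's partners and competitors, had 4 higher and 3 lower. Max, the obligate partner of Myc, was at -0.53, -0.39 and -0.42 in the controls and from -0.28 to 0.92 in the tumors, with a median of 0.74. The difference was 0.96 (SE 0.28, adjusted p = 0.0268), with tumor 5 the lowest tumor. Mlxip, a glucose-responsive partner of Mlx, was higher by 1.29 (SE 0.37, adjusted p = 0.0220). Mxd3, a repressor partner of Max, was at least 1.65-fold higher (adjusted p = 0.00655), since no control measured it well above background. Mycn, a paralog of Myc, fell (-3.06, SE 0.72, adjusted p = 0.0092), as did Mlx (-0.78, adjusted p = 0.0171) and Mlxipl, which encodes the carbohydrate response factor ChREBP (-1.42, SE 0.26, adjusted p = 0.00295). The repressor partners Mxi1 (0.56, adjusted p = 0.0512), Mxd4 (-0.58, adjusted p = 0.0879) and Mnt (-0.56, adjusted p = 0.248) were not called. The calls of Max, Mlx and Mlxip were lost when any 1 of the 3 controls was left out, and that of Mycn without control 1 and with normexp (-0.83). Without control 1, 2 or 3 the list had 2 higher in each case.

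Genes known as direct Myc targets and genes that build ribosomes were higher in the tumors. Of 26 measured classic Myc targets 16 rose and none fell (median difference 1.35), and of 36 ribosome biogenesis genes 20 rose and none fell (median 1.29). In the first scanner's fit 13 and 17 rose. Tfrc, the transferrin receptor, stood at -2.66, -1.71 and -2.25 in the controls and at 2.00 to 3.76 in the tumors, median 2.93, a difference of 5.00 (SE 0.37, adjusted p = 2.58e-05). Npm1, the nucleolar protein nucleophosmin, read -0.28, -0.81 and -0.41 in the controls and 1.34 to 2.86 in the tumors, median 1.63 (difference 2.39, SE 0.32, adjusted p = 0.000554). Neither gene had a tumor near the controls. Srm, spermidine synthase of polyamine synthesis, read -0.54, -0.12 and -0.37 in the controls and -0.28 to 2.90 in the tumors, median 1.98 (difference 2.23, SE 0.56, adjusted p = 0.0126). Odc1, ornithine decarboxylase, which makes the first polyamine, rose by 2.02 (SE 0.45, adjusted p = 0.00705), and Nip7, of 60S subunit assembly, by 1.84 (SE 0.34, adjusted p = 0.00294). The counts of these lists fell when single controls were left out, to 9, 8 and 6 of the Myc targets and to 13, 13 and 12 of the ribosome biogenesis genes without control 1, 2 and 3. The call of Srm was lost without control 1 or control 3.

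Promoters of 3 of these genes, Nme1, Cdk4 and Nop2, are shown because each holds a canonical E-box, CACGTG, upstream of its start, and because these genes later separate tumor 5 from the rest. Nme1 encodes a nucleoside diphosphate kinase, Cdk4 the cyclin D-dependent kinase and Nop2 an RNA methyltransferase of the nucleolus. The bases are from RefSeq on GRCm38.p6, on the gene's own strand, with the E-box in capitals. Those of Nme1 and Cdk4 end just before the start of the gene, and those of Nop2 end short of it, with the first base of the E-box 60 bases before the start.
Nme1, chr11:93968273-93968330, minus strand: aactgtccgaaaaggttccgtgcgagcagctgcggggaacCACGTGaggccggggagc
Cdk4, chr10:127063484-127063534, plus strand: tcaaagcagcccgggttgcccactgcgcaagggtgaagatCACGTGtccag
Nop2, chr6:125131783-125131868, plus strand: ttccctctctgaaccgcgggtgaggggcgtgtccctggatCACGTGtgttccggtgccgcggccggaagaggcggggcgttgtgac

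The motif CACGTG reads the same on both strands and was searched in windows of 250 bases before to 50 bases after each start. It stood in 1957 of 27025 RefSeq promoters (7.24%) and in 1209 of the 12863 promoters of genes tested here (9.40%). Among genes called higher 264 of 2168 promoters held it (12.2%), among genes called lower 145 of 1872 (7.75%) and among the rest 800 of 8823 (9.07%). By list, 5 of 22 promoters of classic Myc targets held it (22.7%), 8 of 34 of ribosome biogenesis (23.5%), 5 of 25 of nucleotide synthesis (20.0%), 3 of 27 of ribosomal proteins (11.1%), 2 of 32 of the cell cycle (6.25%) and 3 of 16 of the oncofetal markers (18.8%), a list outside the growth program. These are counts of letters in a fixed window, and binding was not measured. Nop2 rose by 1.56 (SE 0.44, adjusted p = 0.0211), Nme1 by 1.36 (SE 0.37, adjusted p = 0.0188) and Cdk4 by 1.89 (SE 0.56, adjusted p = 0.0261). The calls of Nop2 and Nme1 were lost when any 1 control was left out, and that of Cdk4 without control 2 or control 3.

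The ribosome and the translation machinery moved with them. Of 38 cytosolic ribosomal protein genes 21 rose and none fell (median 0.92), with Rpsa at -1.11, -0.58 and -1.70 in the controls and 0.99 to 2.19 in the tumors, median 1.47 (difference 2.69, SE 0.31, adjusted p = 0.000275). Rpl4 rose by 2.65 (SE 0.32). In the first scanner's fit 5 of the 38 were called, all higher. Of 24 translation factors 14 rose and 1 fell, led by Eef1b2, of the elongation factor complex (2.04, SE 0.21, adjusted p = 0.000137). Of 20 aminoacyl-tRNA synthetases, which charge tRNAs, 10 rose and 1 fell, with Gars at 1.73 (SE 0.23). The folding chaperonin TRiC had 6 of 8 subunits higher, with Cct3 at 2.14 (SE 0.41). Without control 3 the risen members numbered 5, 5 and 3 of these last 3 lists. Ribosomal protein genes have near-identical pseudogene copies, so single members are uncertain. Of 27 mitochondrial ribosome genes 7 rose (median 0.49) and of 22 mitochondrial import genes 7 (median 0.64), and without tumor 5 these counts were 13 and 12. Without control 1, 2 or 3 the first had 4, 3 and 3 higher, and without control 2 or 3 the second had 2 and 1. Of 31 proteasome subunits 1 rose and 2 fell, and of 39 respiratory chain subunits 3 rose and 4 fell, shares below the background (1 and 1 without control 3 for the respiratory chain).

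Division genes formed the most completely shifted lists. Of 38 cell cycle and mitosis genes 36 rose and none fell (median difference 3.82), and in the first scanner's fit 34 rose with a median of 3.87. Of 37 DNA replication genes 31 rose and 1 fell (median 2.06). Cdk1, the kinase of mitotic entry, read -2.10, -1.23 and -2.51 in the controls and 0.55 to 2.56 in the tumors, median 2.32, a difference of 4.03 (SE 0.44, adjusted p = 0.000200). Mki67, which encodes the proliferation antigen Ki-67, was higher by 4.69 (SE 0.70, adjusted p = 0.000955), and Ccnb1, cyclin B1, at least 9.76-fold (adjusted p = 0.00197). Mcm6, of the replicative helicase, read -2.03, -1.30 and -2.05 in the controls and 0.02 to 4.42 in the tumors, median 3.51 (difference 4.83, SE 0.74, adjusted p = 0.0011). For each of these genes no tumor reached into the controls, and tumor 5 was the lowest tumor. Of 26 chromatin modifiers 14 rose and 1 fell, among them Uhrf1, which maintains DNA methylation (4.80, SE 0.76), and the DNA methyltransferase gene Dnmt3b (2.41, SE 0.26).

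The G1 regulators did not rise as a block: 10 of 25 were higher and 3 lower, and without control 3 the higher ones numbered 6. Ccnd1, cyclin D1, fell while Ccne1, cyclin E1, rose. Ccnd1 stood at 1.40, 0.27 and 0.47 in the controls and at -3.35 to -0.92 in the tumors, median -2.25 (difference -3.03, SE 0.45, adjusted p = 0.00096). Ccne1 stood at -0.46, -0.10 and -0.03 in the controls and at 1.30 to 2.65 in the tumors, median 2.48 (difference 2.53, SE 0.29, adjusted p = 0.000295). Cdkn1a, which encodes the CDK inhibitor p21 and is a p53 target, read -0.69, 0.15 and -1.33 in the controls and 2.63 to 4.57 in the tumors, median 4.32 (difference 4.65, SE 0.44, adjusted p = 0.0001). Of 23 p53 targets 9 rose and 1 fell, with Phlda3 at 2.42 (SE 0.46), Psrc1 at 6.50 (SE 0.79) and Eda2r at least 1.72-fold higher. Of 23 apoptosis genes 4 rose and 4 fell, shares near the background in both directions. Apaf1 of the apoptosome (2.16, SE 0.33) and Bax (1.19, SE 0.28) were among those that rose. Without control 3 that list had 2 higher and 0 lower, without control 2 it had 1 lower, and in the first scanner's fit 1 higher and 0 lower.

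**Figure D2:**
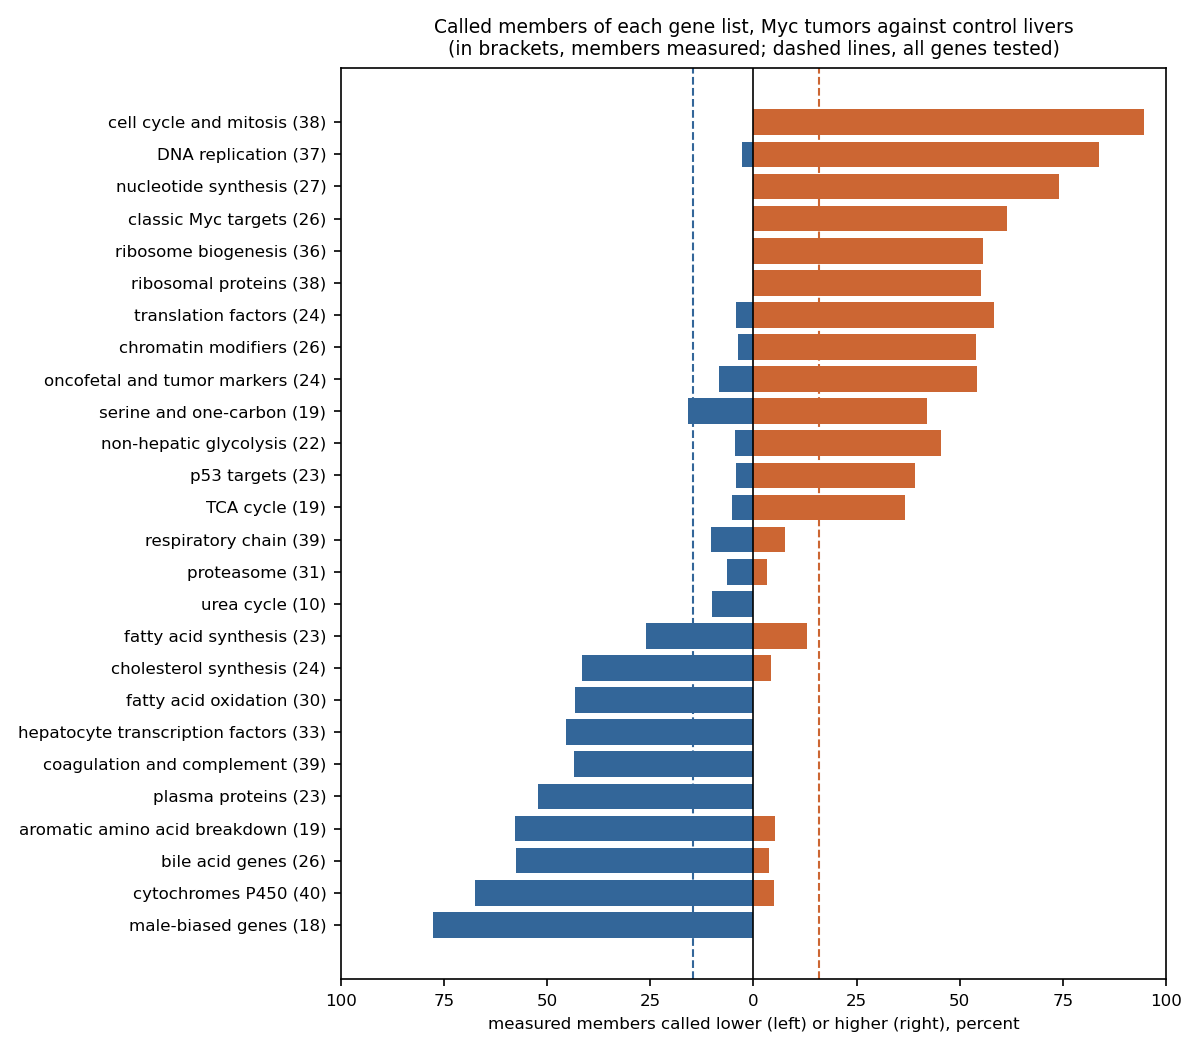
Percent of the measured members of each gene list called higher (right, orange) or lower (left, blue) in the Myc tumors, with the number measured in brackets and the share over all 19353 genes as dashed lines at 15.9% higher and 14.6% lower. Cell cycle genes stand furthest to the right with 36 of 38 called higher, and male-biased liver genes furthest to the left with 14 of 18 called lower.

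Biosynthetic pathways that feed growth followed several patterns. Of 27 nucleotide synthesis genes 20 rose and none fell (median 1.50; 13 without control 2 and 12 without control 3), including Uck2, a uridine kinase (2.44, SE 0.38), Dhodh of pyrimidine synthesis (2.23, SE 0.35) and Impdh2 of guanine nucleotide synthesis (2.28, SE 0.37, adjusted p = 0.0015). The serine branch of the serine and one-carbon list rose, where 8 of 19 members were higher and 3 lower. Psat1, the transaminase of serine synthesis, stood at 0.18, 0.31 and -0.73 in the controls and 4.98 to 8.12 in the tumors, median 6.54 (difference 6.77, SE 0.55, adjusted p = 4.34e-05). Phgdh, the first enzyme of the pathway, stood at 0.34, 1.81 and 1.25 against 3.57 to 6.79, median 6.04 (difference 4.57, SE 0.59, adjusted p = 0.000475), and Psph, the last enzyme, rose by 2.34 (SE 0.40). Every tumor exceeded every control at all 3 enzymes. Asns, asparagine synthetase, had the largest rise among genes that RefSeq names and whose groups did not overlap: -2.47, -1.62 and -1.67 in the controls and 4.58 to 6.22 in the tumors, median 5.49 (difference 7.43, SE 0.35, adjusted p = 3.51e-06). The ATF4 target list to which Asns belongs, genes of the amino acid and stress response, had 6 of 18 members higher and none lower, with a median of 0.19, and in the first scanner's fit 2 higher and 1 lower, with a median of -0.32. The amino acid transporter list had 6 of 22 higher and 2 lower: the cationic amino acid transporter Slc7a1 was at least 4.26-fold higher, and Slc38a3, a glutamine transporter of hepatocytes, fell (-2.64, SE 0.32).

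Many enzymes exist as a form typical of adult liver and a form of other or fetal tissues. In all, 44 isozyme or paralog pairs were read together, and not all of them are of that kind. The first member fell and the second rose in 7 pairs, only the second rose in 13, neither was called in 13, and the remaining pairs had other patterns or an unmeasured member. These counts describe the pairs, which were chosen with earlier results of these data known. The 7 include cytosolic and mitochondrial enzymes (Acss2 and Acss1, Idh1 and Idh2) and 2 cyclins (Ccnd1 and Ccne1). They are therefore not all switches away from an adult liver form. In 3 pairs both members rose, so a rise of the second form was not always an exchange: Pfkl and Pfkp, liver and platelet phosphofructokinase, rose by 1.53 (SE 0.35) and 3.17 (SE 0.52), while Pfkm, the muscle form, fell (-2.08, SE 0.32).

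In glycolysis, Pklr and Pkm encode the liver and the non-hepatic pyruvate kinase. Pklr stood at -0.86, -0.58 and -0.73 in the controls and -3.09 to -1.05 in the tumors, median -2.02 (difference -1.28, SE 0.41, adjusted p = 0.0342). Pkm stood at -0.25, 0.70 and 0.07 in the controls and 1.03 to 4.60 in the tumors, median 3.35 (difference 2.88, SE 0.68, adjusted p = 0.00917). The groups did not overlap for either gene, and tumor 5 had the lowest Pkm. The call of Pklr was lost without any 1 of the controls, without tumor 1 or tumor 2, with both other background corrections, with the deposited series values and in the sample channel alone. Hk2, the inducible hexokinase, rose by 2.24 (SE 0.54, adjusted p = 0.0102; lost without control 1). Aldoa, an aldolase, rose by 1.78 (SE 0.42), and the brain glycogen phosphorylase Pygb rose by 3.09 (SE 0.32) with the liver form Pygl at -1.58 (adjusted p = 0.232). Of the non-hepatic glycolysis list 10 of 22 members rose and 1 fell. Lactate dehydrogenase showed no call, with Ldha at 0.69 (SE 0.35, adjusted p = 0.156) and Ldhb at 0.66 (SE 1.68, adjusted p = 0.794).

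In lipid metabolism the cytosolic and the mitochondrial acetyl-CoA synthetase exchanged in every tumor. Acss2, cytosolic, stood at -0.84, -0.77 and -0.83 in the controls and -2.93 to -2.40 in the tumors, median -2.60 (difference -1.81, SE 0.19, adjusted p = 0.000198). Acss1, mitochondrial, stood at -0.48, 0.53 and -0.51 in the controls and 4.53 to 6.85 in the tumors, median 6.24 (difference 6.31, SE 0.47, adjusted p = 2.72e-05). Tumor 5 lay inside the range of the other tumors for both. The desaturase Scd2 rose from -0.27, -0.20 and -0.12 to between 4.36 and 6.61, median 6.10 (difference 5.98, SE 0.48, adjusted p = 3.89e-05), while Scd1, the main desaturase of adult liver, was not called (-1.41, SE 0.60, adjusted p = 0.098). Fabp1, the liver fatty acid binding protein, fell (-3.29, SE 0.71, adjusted p = 0.00603) and Fabp5 rose (2.57, SE 0.63, adjusted p = 0.0118), and was no longer called without control 2, without control 3 or with normexp (0.81). Lpl, the lipoprotein lipase, which adult hepatocytes hardly make, rose by 4.13 (SE 0.47, adjusted p = 0.000264).

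The remaining exchanges were of the amino acid, growth factor and fetal genes. Gls2, the liver glutaminase, was not called as a mean (-1.13, adjusted p = 0.178), though its values were split between tumors, as described further on. Mat2a, the non-hepatic methionine adenosyltransferase, rose by 1.40 (SE 0.36, adjusted p = 0.0142; lost without control 1 or control 2) with Mat1a at -0.91 (SE 0.42, adjusted p = 0.127). Igf1 fell (-3.62, SE 0.72, adjusted p = 0.00409) and Igf2, the fetal growth factor, rose (2.88, SE 0.53, adjusted p = 0.00297). H19, an imprinted RNA next to Igf2, rose by 3.32 (SE 0.39, adjusted p = 0.000314). Igf2bp3, a fetal RNA-binding protein, stood at 0.42, 0.84 and 0.00 in the controls and 5.97 to 8.35 in the tumors, median 7.60 (difference 6.97, SE 0.45, adjusted p = 1.3e-05), while Igf2bp2 changed by -0.96 (SE 0.27, adjusted p = 0.0202), which was no longer called when any 1 control was left out or with normexp (-0.25). Mitochondrial Idh2 rose by 1.50 (SE 0.22, adjusted p = 0.000808), and cytosolic Idh1 changed by -0.89 (SE 0.26, adjusted p = 0.0247; lost without control 2 or control 3). Of 24 oncofetal and liver tumor markers 13 rose and 2 fell: Afp, alpha-fetoprotein, read -1.07, 0.15 and -0.66 in the controls and 3.08 to 8.98 in the tumors, median 6.55 (difference 7.32, SE 1.04, adjusted p = 0.000777).

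**Figure D3:**
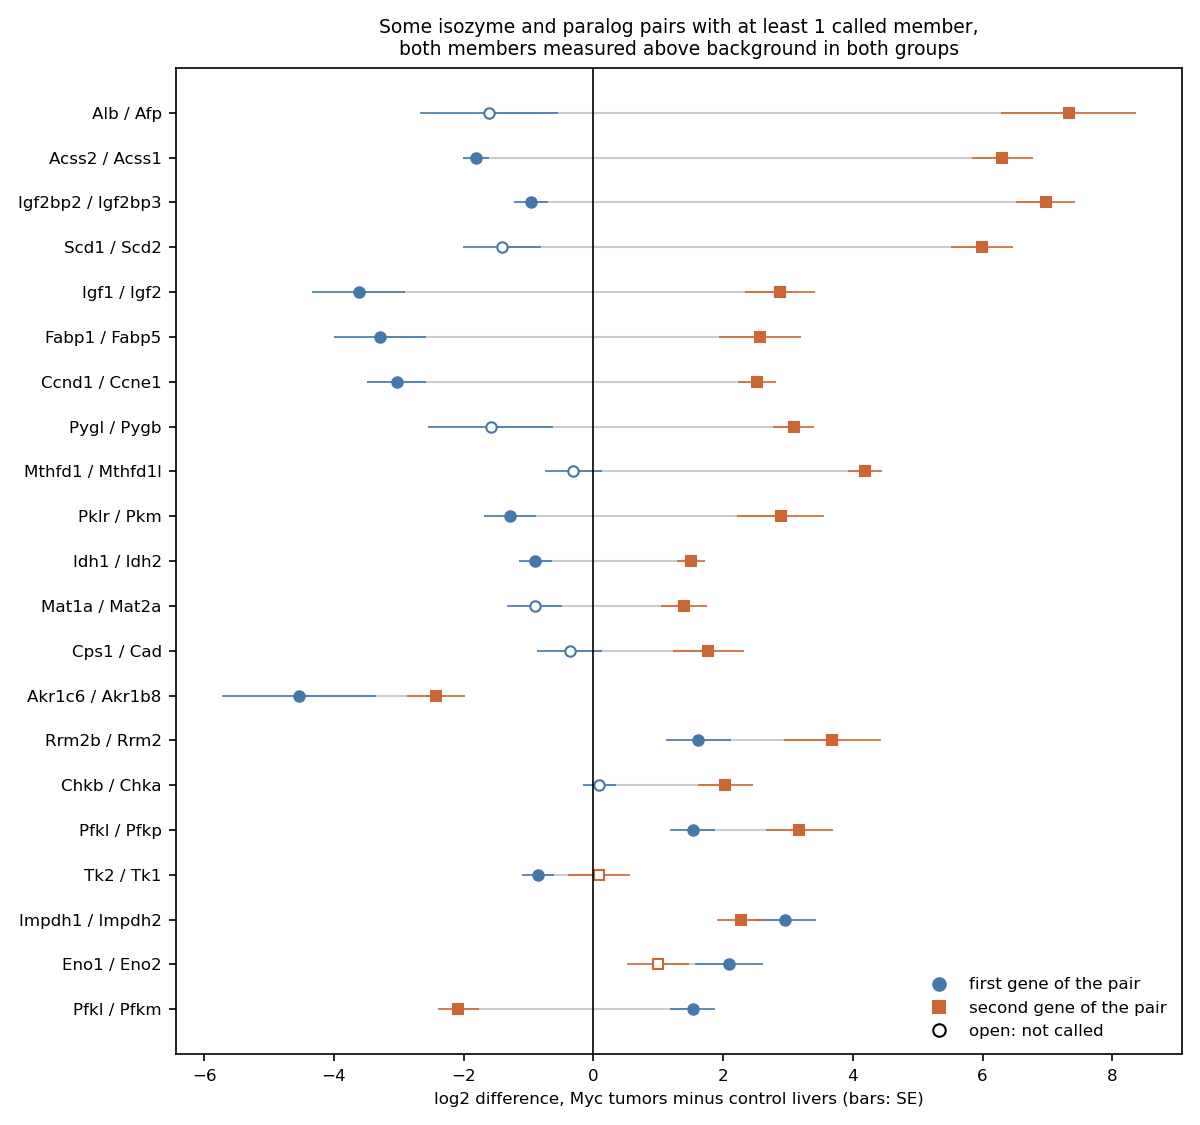
Log2 difference between Myc tumors and control livers with its SE for some of the pairs of isozymes or paralogs, the first gene as a blue circle and the second as an orange square, open where it was not called. The second gene lies to the right of the first in most pairs, widest for Alb and Afp (7.32 for Afp), and Pfkm (-2.08) and Akr1b8 (-2.42) are second genes that fell.

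Genes of hepatocyte function were lower, to very different extents by pathway. The largest falls were of major urinary protein genes, pheromone carriers secreted by the liver: Mup9 stood at 0.29, 0.10 and 1.24 in the controls and -10.52 to -7.50 in the tumors, median -9.17 (difference -9.48, SE 0.57, adjusted p = 8.9e-06), and Mup1, saturated in every control, was at least 140-fold lower (adjusted p = 0.000368). The Mup genes are near-identical copies, so single members are uncertain. Of 18 male-biased liver genes 14 fell and none rose (median -4.01; 9 fell in the first scanner's fit), with the steroid dehydrogenase Hsd3b5 at -4.76 (SE 0.41), and of 20 female-biased genes 7 fell and 1 rose. Without tumor 6, 4 female-biased genes fell, and without control 1, 3 fell and 4 rose. The level of Y-linked genes minus that of Xist, used as a sex score, was -7.14, 8.44 and 8.41 in the controls and ran from -2.08 to 9.69 in the tumors. With that score as a covariate 14 male-biased and 6 female-biased genes were lower. Among the transcription factors of hepatocytes 15 of 33 fell and none rose (7, 7 and 5 without control 1, 2 and 3, and 5 in the first scanner's fit): Onecut1 fell from 0.48, -0.36 and 0.56 to between -4.18 and -2.82, median -3.40 (difference -3.58, SE 0.32, adjusted p = 7.49e-05), and Esr1, the estrogen receptor (-4.55, SE 0.58), also fell. Ppara, which drives fatty acid oxidation, fell by 2.00 (SE 0.29). Hnf4a, a central regulator of hepatocyte identity, was not called (-0.51, SE 0.21, adjusted p = 0.0878).

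Cytochromes P450 and bile acid genes were among the metabolic lists with the largest shares lower. Of 40 P450 genes 27 fell and 2 rose (median -2.64, and 18 fell in the first scanner's fit), with Cyp1a2 at -3.87 (SE 0.39, adjusted p = 0.000143) and Cyp4f14 at -4.20 (SE 0.50). Of 26 bile acid genes 15 fell and 1 rose (9 fell without control 3). Cyp7b1, of the alternative bile acid pathway, stood at -0.04, 0.87 and 0.83 in the controls and -6.60 to -3.16 in the tumors, median -4.85 (difference -5.67, SE 0.71, adjusted p = 0.000426). Slco1a1, an organic anion uptake carrier, stood at 1.05, 0.97 and 1.21 against -8.03 to -3.60, median -6.45 (difference -7.00, SE 0.89, adjusted p = 0.000456), among 13 of 21 ion uptake transporters that fell. Cyp8b1, which sets the share of cholic acid, fell by 2.79 (SE 0.47). In conjugation 14 of 40 genes fell and 2 rose, with Ugt2b1 at -6.10 (SE 0.77), Sult5a1 at -5.39 (SE 0.45) and Mgst2, a microsomal glutathione transferase, higher by 3.79 (SE 0.34).

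Secreted plasma proteins, amino acid breakdown and lipid pathways were lower at a part of their members. Of 23 plasma protein genes 12 fell (7 without control 1 and 6 without control 3), and of 39 coagulation and complement genes 17 fell (8 without control 2, 8 without control 3, and 11 without tumor 4 or without tumor 6), with none higher in either. In the first scanner's fit 7 and 8 fell. C9, of the membrane attack complex, fell by 7.16 (SE 1.01, adjusted p = 0.000732). Of 19 aromatic amino acid breakdown genes 11 fell and 1 rose (6, 6 and 7 fell without control 1, 2 and 3, and 6 in the first scanner's fit), with Kmo of tryptophan breakdown at -1.97 (SE 0.23). Fatty acid oxidation and ketogenesis had 13 of 30 lower and none higher (6 without control 1, 7 without control 3, and 2 in the first scanner's fit, where the median was -0.57 against -0.71), including Slc27a2, a very long-chain acyl-CoA synthetase (-1.88, SE 0.36). Cholesterol synthesis had 10 of 24 lower and 1 higher: Sc5d, a late step, stood at -0.70, -0.98 and -0.55 in the controls and -4.68 to -3.14 in the tumors, median -3.49 (difference -3.01, SE 0.34, adjusted p = 0.000256), and Insig1, the feedback inhibitor of SREBP processing, fell by 2.36 (SE 0.28). Of 10 urea cycle genes 1 was called, the mitochondrial ornithine carrier Slc25a15 (-0.72, SE 0.20, adjusted p = 0.0216; lost without control 2 or control 3).

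Smaller regulatory lists also differed. Hamp, which encodes the iron hormone hepcidin, stood at 1.39, 0.85 and 0.90 in the controls and -4.21 to -2.95 in the tumors, median -3.95 (difference -4.74, SE 0.31, adjusted p = 1.35e-05). Of 18 circadian genes 10 fell and 3 rose (6 fell without control 2 or without control 3, and 2 fell and 0 rose in the first scanner's fit), with the output gene Dbp at -3.27 (SE 0.29), the repressor Nr1d1 at -2.90 (SE 0.29) and Per1 higher by 1.97 (SE 0.27). At what time of day the livers were taken is not stated. In retinoid metabolism 14 of 25 genes fell and none rose (9 without control 1, 2 or 3 in turn, and 8 in the first scanner's fit), among them the retinol receptor Stra6 (-3.03, SE 0.28) and the retinoic acid hydroxylase Cyp26b1 (-4.88, SE 0.46). Of 25 antioxidant genes 6 fell and 2 rose: Gclc, which limits glutathione synthesis, changed by -2.65 (SE 0.26), Cat, catalase, by -2.42 (SE 0.30) and Gpx3 by 3.04 (SE 0.51).

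Markers of other cell types also moved, and their part in the results above was not tested. The 9 hepatocyte markers measured had 2 lower, and their median by array ran from -0.31 to -0.07 in the controls and from -2.79 to -0.21 in the tumors. Of 16 endothelial markers 9 fell and 1 rose, with list medians of -0.23 to -0.00 in the controls and -2.21 to -0.81 in the tumors, and Kdr, the VEGF receptor, fell by 2.71 (SE 0.38). Of 18 Kupffer cell and macrophage markers 6 rose and 5 fell: the resident Kupffer cell genes Clec4f (-4.86, SE 0.96) and Marco (-4.36, SE 0.77) were lower, while the general macrophage gene Cd68 was higher (2.55, SE 0.34). Their list medians were -1.12 to 0.01 in the controls and -0.41 to 0.88 in the tumors. The median difference of this list was 1.03, and it turned to -0.14 in the first scanner's fit (2 higher, 2 lower) and to -0.66 with the scan day as a block (0 and 0). Of 22 stellate cell and matrix genes 7 rose and 3 fell (medians -0.72 to -0.33 against -0.93 to 1.89; 4 higher without control 1 or 2, 3 higher without control 3, and 1 lower without control 1 or 3), with Col4a1 at 2.87 (SE 0.36). Of 12 erythroid genes 6 rose (medians -0.04 to 0.00 against 0.88 to 3.06; 3 without control 2), with Ahsp, a hemoglobin chaperone, at least 4.34-fold higher. Of 16 biliary and progenitor markers 2 rose and 3 fell (5 fell without tumor 5).

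For neutrophil and acute phase genes the fit within the first scanner departed from the main fit. Of 12 neutrophil markers 7 rose, with medians of 0.08 to 0.52 in the controls and 0.89 to 4.58 in the tumors, and 3, 2 and 1 rose without control 1, 2 and 3. S100a8, an abundant neutrophil protein, read 1.78, 1.32 and 1.11 in the controls and 1.01, 5.56, 5.90, 5.44, 6.71, 5.37 and 4.39 in tumors 1 to 7 (difference 3.51, SE 0.96, adjusted p = 0.0185, lost without control 2 or control 3). Tumor 1, on the controls' scanner, was the only tumor that did not exceed them. In the first scanner's fit S100a8 changed by -0.39 and the list median was -0.10, with 2 genes higher and 1 lower. Of 23 acute phase genes 5 rose and 1 fell (3, 2 and 2 rose without control 1, 2 and 3), where the first scanner's fit had 0 higher, 2 lower and a median of -0.64. The acute phase list did not divide by scanner. Its median was -0.69 in tumor 1 and -0.63 in tumor 7, on the other scanner. It was -0.06 to 0.26 in tumors 2, 3, 4 and 6 and 1.20 in tumor 5, against -0.40 to 0.18 in the controls. Scanner and tumor cannot be told apart for tumors 2 to 7.

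Tumor 5 departed from the other 6 to an extent that differed by gene function. For each tumor, genes were called in a fit without it, and its place was expressed as a share of the change, 0 at the control mean and 1 at the mean of the other 6 tumors. Tumor 5 had a median share of 0.63 over 6730 genes, and the other tumors had 0.89 to 1.13 over 5164 to 5627 genes. It passed the midpoint of the change at 59.9% of genes, against 83.9% to 94.2% in the others, and at 20.2% of genes it did not pass the outermost control, against 2.73% to 8.18%. Rises and falls were alike in this, with median shares of 0.63 and 0.64. Tumors 2 and 3 were scanned on the same day as tumor 5, and tumor 3 lay on the same slide. With 1 such tumor these values are a description with no test. For each other tumor the fit and the mean of the rest included tumor 5. Genes where tumor 5 lay near the controls were called less readily there, and the mean lay nearer the controls. Part of the contrast between tumor 5 and the others is therefore built into the measure. In the sample channel alone, without the reference, the distance was small: tumor 5 passed the midpoint at 64.1% of genes and the lowest of the other tumors at 66.3%.

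Genes of the Myc program were among those nearest the controls in tumor 5. Of 22 classic Myc targets called in the other 6 tumors, tumor 5 did not exceed the highest control at 15. Its median share was 0.02, where the other tumors had 0.87 to 1.31, each over a smaller set of 12 to 15 genes. For ribosome biogenesis tumor 5 did not at 17 of 29, with a median share of 0.05 (others 0.92 to 1.32 over 18 or 19 genes). Srm read -0.28 in tumor 5 and 1.66 to 2.90 in the others, and Odc1 -0.14 against 1.14 to 2.11. Nop58, of the box C/D particle that methylates ribosomal RNA, read 0.47 against 2.03 to 2.59. The 3 genes with an E-box shown above read -0.07 for Nop2 (others 1.14 to 2.11), -0.38 for Nme1 (others 0.79 to 1.50) and -0.18 for Cdk4 (others 1.03 to 2.55). They were shown partly for this place in tumor 5, so they add no separate result. Whether an E-box goes with that place was not tested. The median share was 0.11 for the mitochondrial ribosome, 0.12 for mitochondrial import, 0.12 for polyamine genes, 0.27 for nucleotide synthesis and 0.27 for non-hepatic glycolysis, with Hk2 at 0.12 within the controls (-1.38 to 0.18). Lists outside that program were as near: 4 pentose phosphate genes had a median share of 0.03, 2 hepatocyte markers 0.08 and 7 methionine cycle genes 0.17. Not every Myc target was near the controls: Tfrc read 2.16 in tumor 5, above the 2.00 of tumor 6, and Npm1 read 1.34, against 1.61 to 2.86 in the others.

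Division genes were intermediate to low in tumor 5. The median share was 0.24 for 37 cell cycle genes and 0.22 for 37 DNA replication genes. Tumor 5 did not pass the outermost control at 8 and 12 of them. Each other tumor passed it at every member called without that tumor, a smaller set of 32 to 34 and 30 to 32 genes. Birc5, which encodes survivin, read 0.46 in tumor 5 and 3.25 to 5.13 in the others, and Mcm6 0.02 against 2.93 to 4.42. Mki67 at 1.14 was above the controls (at most -0.12) and below the others (at least 4.18). Bub1b, of the spindle checkpoint, at -0.58, Orc1, of the origin recognition complex, at 0.00 and Mcm5 at -0.50 were within the controls. Among genes called without tumor 5, those with the largest distances below the other tumors were Lrr1 (-0.50 against 2.88 to 6.60), Pbk (-0.30 against 4.78 to 5.77), Ska1, Ccnb1 (0.18 against 4.71 to 6.85) and Cdca7 (-2.10 against 1.34 to 3.49). Pbk encodes a mitotic kinase, and Ska1 a kinetochore protein.

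**Figure D4:**
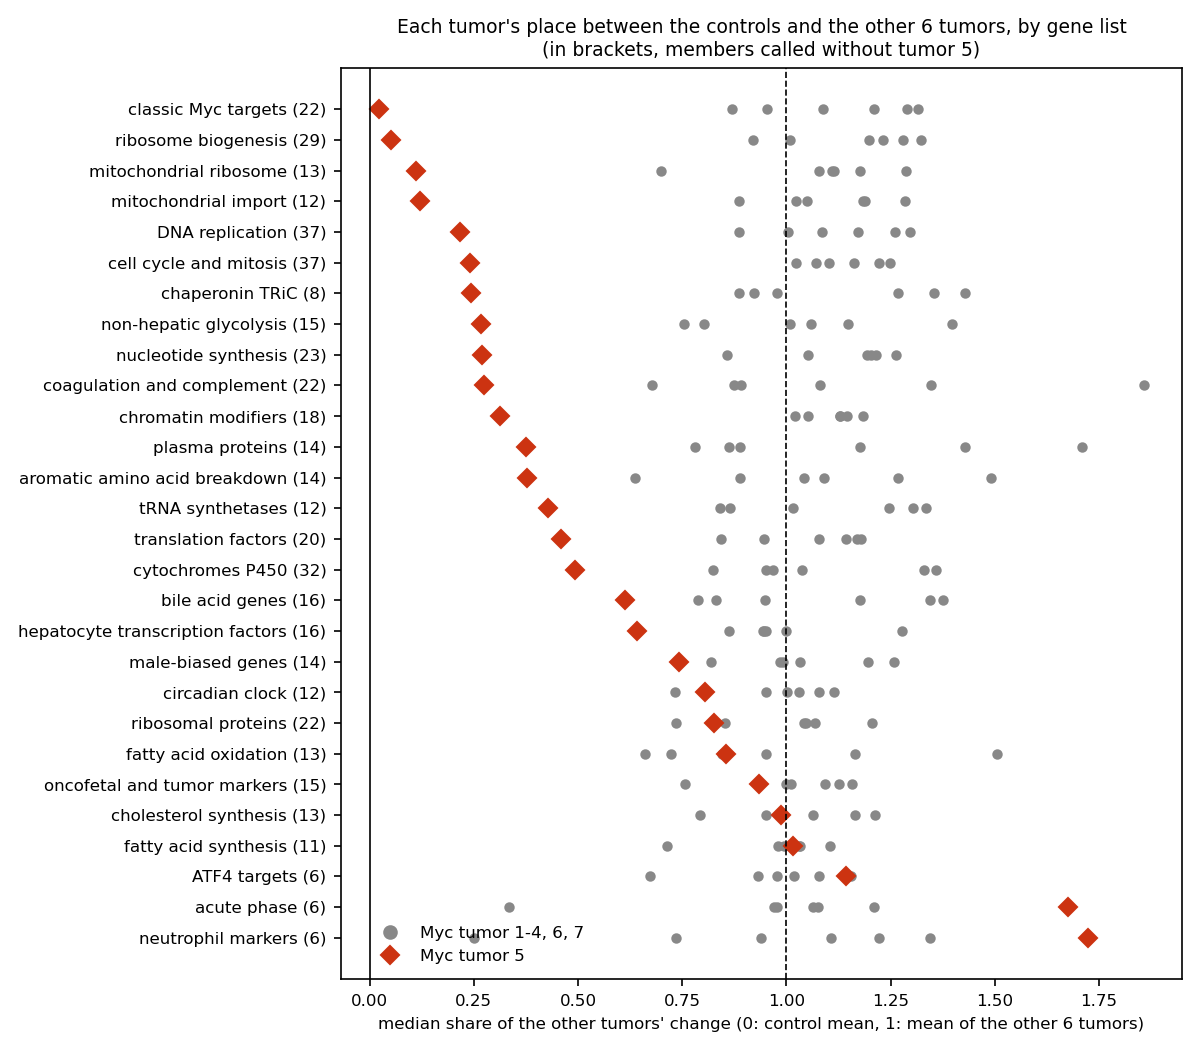
Median share of the change for genes of each list called in the other 6 tumors, where 0 is the control mean and 1 the mean of the other 6 tumors, with tumor 5 as a red diamond and the other tumors in grey. Tumor 5 lies apart from all others for classic Myc targets (0.02) and ribosome biogenesis (0.05) and among them for ribosomal proteins (0.83), oncofetal markers (0.93) and cholesterol synthesis (0.99).

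Several other lists had a median share in tumor 5 within the range of the other tumors. It was 0.83 for 22 ribosomal protein genes, none of which stayed within the controls, 0.93 for oncofetal markers, 1.14 for ATF4 targets, 0.99 for cholesterol synthesis, 1.02 for fatty acid synthesis, 0.85 for fatty acid oxidation and 0.80 for circadian genes. These shares cover only members called without tumor 5. Over all measured members, the list median of tumor 5 was the lowest tumor for cholesterol synthesis (-1.27, others -0.98 to -0.17). It was narrowly the lowest for ribosomal proteins (0.60, others 0.61 to 1.72) and the highest for circadian genes (-0.64, others -1.63 to -0.90). Those of oncofetal markers, ATF4 targets, fatty acid synthesis and fatty acid oxidation lay among the other tumors. For male-biased genes the median share was 0.74, the lowest of the 7 tumors (others 0.82 to 1.26), with 2 of 14 genes within the controls. Among single genes, Afp at 6.55 and Igf2bp3 at 7.60 were the medians of the 7 tumors, S100g, a calcium-binding protein gene, was highest in tumor 5 (9.84), and Mup9 was lowest (-10.52). Cdkn1a read 4.39, within the other tumors. By list median, ribosomal protein and ribosome biogenesis genes both stood above the controls in each of the other 6 tumors. They were not in step there, at 0.61 and 1.58 in tumor 1. In tumor 5 only the ribosomal protein genes stood above the controls, at 0.60, with ribosome biogenesis at -0.07.

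Hepatocyte secretory and metabolic genes were partly kept in tumor 5. Coagulation and complement had a median share of 0.28, with 9 of 22 genes no lower than the lowest control, plasma proteins 0.37 (5 of 14), aromatic amino acid breakdown 0.38 (5 of 14) and cytochromes P450 0.49 (9 of 32). Plasminogen, Plg, read 0.39 against -3.19 to -0.74 in the other tumors, and Cfi, a complement inhibitor, -0.12 against -3.24 to -0.98. The median of the hepatocyte markers was -0.21 in tumor 5, within the controls, and -2.79 to -0.66 in the others. Among genes called without tumor 5, those with the largest distances above the other tumors were Cd207 (3.05 against -3.81 to -1.44), Sucnr1 (-0.53 against -7.54 to -2.75), Colec10, a collectin (-2.80 against -10.48 to -4.72), Tex12 and Mug1, murinoglobulin (-0.48 against -6.34 to -2.82). Sox9, a biliary and progenitor factor, read 1.88 in tumor 5, 0.04 to 1.02 in the controls and -2.61 to -0.99 in the others, and the biliary and progenitor list had its highest median, 1.38, in tumor 5 (others at most -0.26, controls 0.04 to 0.08). Acute phase genes had a share of 1.68 (others 0.33 to 1.21) and neutrophil markers 1.72 (others 0.25 to 1.34). In all, 192 genes lay above all 9 other arrays by over 1 in tumor 5 and 74 below, and in tumor 7 these numbers were 262 and 313, so that tumor 5 was not the most singular array by this count.

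Genes of liver zonation, which the means above pass over, divided the tumors in another way, and the genes described here beyond Cyp1a2, Cyp2e1, Igf1, Cyp2f2 and Hal were chosen after their values were seen. Pericentral hepatocytes, around the central vein, depend on β-catenin signalling and make glutamine synthetase, and periportal hepatocytes make urea and break down amino acids. Of 16 pericentral and β-catenin target genes 2 fell and 1 rose as a mean, yet the median of the list against the control mean was -3.58, -3.71, 0.47, 0.26, -3.08, -4.30 and -0.33 in tumors 1 to 7. In tumors 1, 2, 5 and 6, 15 of the 16 genes lay below all controls, and in tumors 3, 4 and 7 it was 2, 4 and 8, with 8, 9 and 6 above all controls. Over all genes tested, 34.1% to 43.4% lay below all controls in a tumor and 34.1% to 38.6% above, so that tumor 7 stood near these shares in both directions.

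Glul, glutamine synthetase, read 0.69, 0.13 and 0.65 in the controls and -3.71, -3.05, 1.19, 0.78, -3.24, -3.91 and 0.71 in tumors 1 to 7, so that tumors 3, 4 and 7 were at or above the controls and the other 4 at least 3.05 below the reference. Axin2, a feedback inhibitor of β-catenin, read 0.54, -0.09 and 0.33 in the controls and -5.51, -2.86, 2.05, 0.00, -3.41, -1.78 and 2.91 in the tumors. Nkd1, another feedback gene, read 0.02, -0.15 and 0.48 and then -3.85, -3.33, 2.31, 2.01, -1.72, -3.18 and 2.40. Lgr5, the R-spondin receptor, was at -3.82, -4.18, -2.14 and -3.77 in tumors 1, 2, 5 and 6 and at 0.82, 1.19 and -0.21 in tumors 3, 4 and 7. The transcription factor Tbx3 and the ammonium channel Rhbg had the same order, with Tbx3 at most -3.30 in tumors 1, 2, 5 and 6 and at least 1.02 in the other 3. None of these 6 genes was called as a mean (Glul -2.09, SE 1.21, adjusted p = 0.211). The pericentral enzymes Cyp2e1 and Cyp1a2 did not follow them and were below the controls in all 7 tumors, with Cyp2e1 at -4.02 (SE 0.90, adjusted p = 0.00751). Znrf3, a feedback ligase of the pathway, was above the controls in all 7 (1.18, SE 0.41, adjusted p = 0.0488; lost without any 1 control or without tumor 1, 3, 4 or 7).

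Several periportal genes ran the other way. Arg1, arginase, read -1.47, -1.12 and -1.11 in the controls and -1.30, -1.30, -3.92, -4.26, -0.35, -1.67 and -5.31 in the tumors, so that tumors 3, 4 and 7 were the lowest. Ass1, argininosuccinate synthase, read -2.19, -2.77 and -3.83 in tumors 3, 4 and 7 and -0.78 to -0.35 in the other 4, against -0.75 to -0.18 in the controls. Sds, serine dehydratase, read -3.56, -3.47 and -5.13 in these 3 and -1.30 to 0.81 in the other 4. Gls2, the liver glutaminase, read -3.35, -3.52 and -3.82 in tumors 3, 4 and 7 and -1.74 to -1.15 in the rest. Of 13 periportal genes 11, 11 and 12 lay below all controls in tumors 3, 4 and 7, and 5, 4, 3 and 7 in tumors 1, 2, 5 and 6. The lactate dehydrogenase Ldhb divided the tumors along the same line, with 5.64, 6.16 and 4.45 in tumors 3, 4 and 7, -1.20 to 0.18 in the other 4 and 1.22 to 1.43 in the controls. Other members did not divide so. Alb read -3.43, -4.09 and -4.41 in tumors 4, 6 and 7 and -0.05 in tumor 3. Cdh1 read -3.74, -3.59 and -4.47 in tumors 4, 6 and 7 and -0.94 in tumor 3. Cps1, of the urea cycle, was below the controls in tumors 1, 4, 6 and 7, and Aldh1b1 was above them in all 7. Hal, Igf1 and Cyp2f2 were below the controls in all 7 tumors. Otc, of the urea cycle, was below the controls in all 7 as well, by a small margin in tumor 5 (-0.69 against -0.68 for the lowest control).

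Other values of these tumors are given beside this division, and their part in it was not tested. Tumor 3 and tumor 5 lay on the same slide and read 1.19 and -3.24 for Glul, and tumors 2, 3 and 5 were scanned on the same day. Tumor 1, on the controls' scanner, had 15 of the 16 pericentral genes called lower in the first scanner's fit, at a median of -3.58. Myc probe A_52_P278549 read 5.16, 4.71 and 4.22 in tumors 3, 4 and 7 and 3.15, 4.59, 2.41 and 4.38 in tumors 1, 2, 5 and 6. Myc probe A_52_P108346 read 6.11, 6.39 and 5.26 in the former and 2.54 (saturated), 5.50, 2.10 and 6.21 in the latter. The sex score was 9.33, 7.00 and 1.73 in tumors 3, 4 and 7 and 9.69, 3.32, -1.72 and -2.08 in tumors 1, 2, 5 and 6. The number that recurs in the file names of tumors 3 and 4 is not that of tumor 7. Gpc3, a fetal and tumor surface proteoglycan of the oncofetal list chosen after its values were seen, was not called as a mean (1.86, SE 1.34, adjusted p = 0.312): it read 5.62, 6.02 and 5.46 in tumors 3, 4 and 7, 2.85 and 3.94 in tumors 1 and 2, and -0.08 and -0.10 in tumors 5 and 6, below the controls (1.24 to 1.83).

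**Figure D5:**
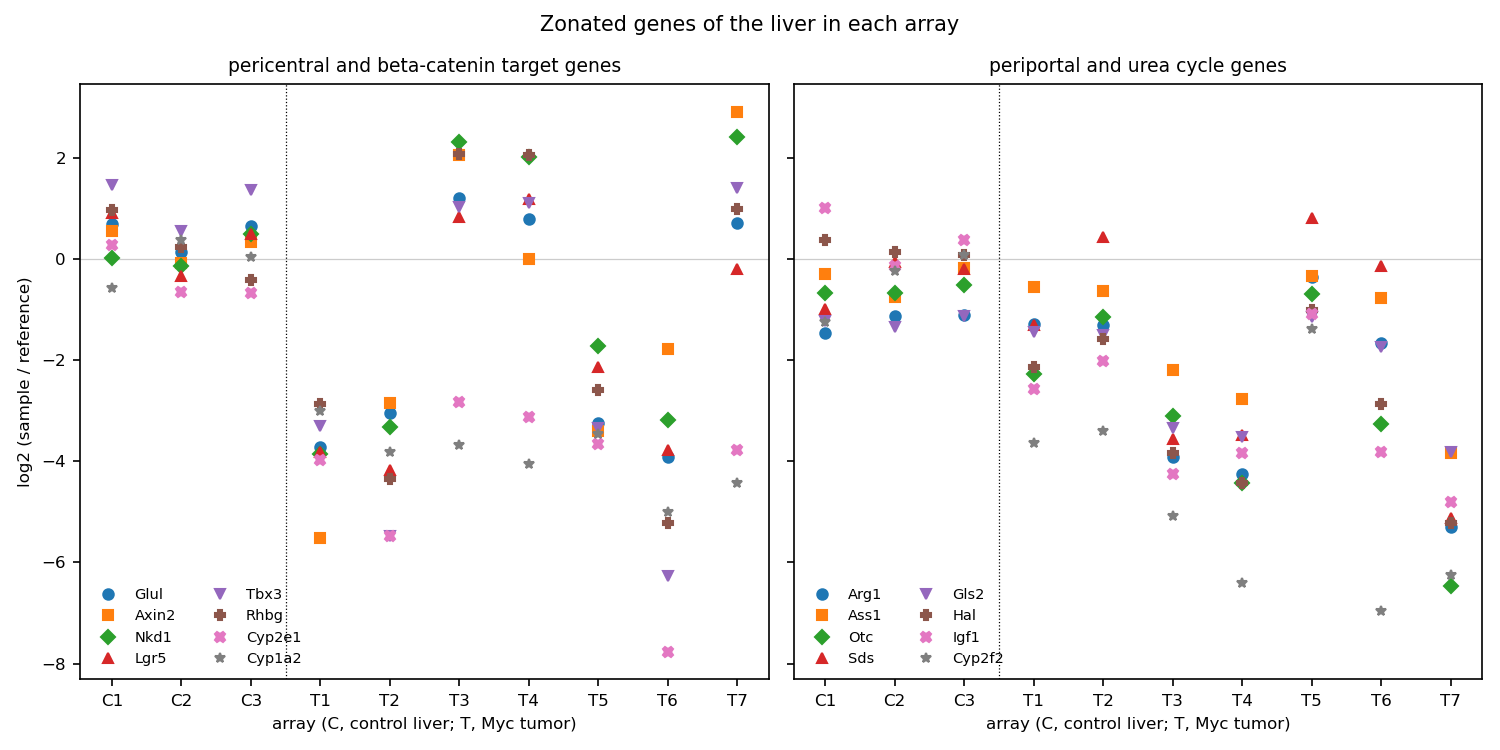
Log2 of sample over reference on each array (C, control liver; T, Myc tumor) for pericentral and β-catenin target genes (left) and periportal and urea cycle genes (right). Glul, Axin2, Nkd1, Lgr5, Tbx3 and Rhbg stay near or above the controls in tumors 3, 4 and 7 (Glul 1.19, 0.78 and 0.71) and lie lower in tumors 1, 2, 5 and 6, whereas Arg1, Ass1, Sds and Gls2 are lowest in tumors 3, 4 and 7 (Arg1 -3.92, -4.26 and -5.31).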

How the data were processed

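Agilent 4x44K 2-colour arrays were used as deposited. Per the labels, the sample was labelled with Cy3 and the pooled liver reference with Cy5. Per the file headers, the deposited log10 ratio is red over green from background-subtracted, dye-normalized signals, and Feature Extraction used different background protocols on different arrays. The submitters' processing notes name limma. The value is minus this ratio times 3.322, which gives log2 of sample over reference. The deposited intensity columns of both channels served the filter and the other background corrections, and the deposited series values, on a log2 scale, served as an alternative.

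Control spots were left out and spots averaged by probe. A probe was kept if well above background in Cy3 on 3 or more arrays of the 10, which left 28805 of 41174 probes. A gene took its brightest kept probe, which gave 19353 genes, and 6705 had more than 1. Names came from RefSeq accessions (27479 probes), symbols (6157) or the file (7538). Groups were fitted with limma 3.58.1 (lmFit, eBayes) in R 4.3.3, with Benjamini-Hochberg adjustment over all genes tested and a threshold of 0.05. The procedure was tested on simulated data. A gene dim or saturated in every control has only a bound, printed as "at least": the mean of the bright group against, per array, the higher of the lowest signal well above background and the probe's own. Named are Myc and its network, the isozyme pairs, up to 6 members per list with the smallest p, the largest changes, and the members that set tumor 5 apart. Other genes are said to be chosen after their values were seen. The members, lists and pairs were chosen with earlier results of these data known. Alternatives changed the background correction, scaling, filter, probe rule, model, batch terms and arrays used. Some genes of the lists and pairs are not reported here by name.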

Additional observations from a re-analysis of the deposited data

Results flagged for a closer look

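Dixon's test of the highest or lowest sample of a group, which chance passes in about 1 in 20 groups, was run on 147 named genes and the Myc probes. By it, 27 values stood apart from the other 6 tumors, and 21 of them were of tumor 5, Myc probe A_51_P102096 included. The share over all genes was not computed. At Myc probe A_51_P102096 tumor 5 was the highest tumor (0.93; others -1.24 to -0.41). Cell division and DNA replication genes were lowest in tumor 5: Birc5 (0.46; others 3.25 to 5.13), Bub1b (-0.58; 3.08 to 4.76), Ccnb1 (0.18; 4.71 to 6.85), Cdk1 (0.55; 2.01 to 2.56), Ccne1 (1.30; 2.38 to 2.65), Mki67 (1.14; 4.18 to 4.83), Pbk (-0.30; 4.78 to 5.77), Ska1 (0.00; 4.23 to 5.51), Mcm5 (-0.50; 1.83 to 3.01), Mcm6 (0.02; 2.93 to 4.42), Orc1 (0.00; 2.96 to 5.17) and Cdca7 (-2.10; 1.34 to 3.49).

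Growth genes were also lowest in tumor 5: Cct3 (-0.33; others 1.00 to 1.77), Nip7 (0.75; 1.85 to 2.51), Nme1 (-0.38; 0.79 to 1.50), Nop58 (0.47; 2.03 to 2.59) and Srm (-0.28; 1.66 to 2.90). Tumor 5 was the highest tumor for Cd207 (3.05; others -3.81 to -1.44), Sox9 (1.88; -2.61 to -0.99) and Tex12 (2.74; -2.82 to -1.12). Many of these genes were named for the place of tumor 5, so their number is not independent of it.

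Tumor 1, the only tumor on the controls' scanner, was lowest for Acss1 (4.53; others 5.86 to 6.85), Igf2bp2 (-1.45; -0.59 to -0.15), Phgdh (3.57; 5.55 to 6.79) and S100a8 (1.01; 4.39 to 6.71). Tumor 4 was lowest for Pfkp (1.33; others 3.04 to 4.19), and tumor 6 highest for Col4a1 (3.26; others 1.59 to 2.21).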

How the results depend on the processing

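The number of genes called, 5908, stayed within 1.5 times of itself under the other background corrections, filters, probe rules and models, at 4177 (replicate number as a block) to 8430 (array weights). It fell to 3925 in the sample channel alone, 2685 within the first scanner, 895 with the scan day and 765 with the scanner as a block, and 331 in the default background protocol alone, an alternative chosen after seeing the data; the cause was not tested, and fewer controls or tumors enter the last 4. Leaving out 1 array at a time gave 3067 to 6730. The share of higher genes was 49.7% to 56.3%, apart from 61.6% in the default protocol. At Myc probe A_52_P278549 the call was lost within the first scanner (2.86), with a block for the scanner (2.86) and with one for the scan day (2.27). The last of these is the difference of tumor 1 from control 2 alone. Probe A_52_P108346 of Myc lost its call there too (adjusted p of 0.0611, 0.265 and 0.223), but its differences in these fits, 2.89, 2.30 and 2.89, rest on the saturated spot of tumor 1, are lower bounds where tumor 1 alone is set against the controls, and cannot be set against the 5.22 of all tumors. S100a8 turned to -0.39 within the first scanner, -0.39 with the scanner and -0.31 with the scan day as a block. Tumor 5 passed the midpoint at 59.9% of genes, 45.2% with normexp and 64.1% in the sample channel alone. The lowest of the other tumors stood at 83.9%, 87.8% and 66.3%, so that the distance was small in the sample channel. Of the 118 named genes called, 109 remained called with normexp, 109 with the deposited series values and 106 in the sample channel alone. The replicate numbers do not pair the samples: same-numbered arrays correlated at -0.01, 0.01 and 0.06. The slide as a random block could not be fitted over the 10 arrays and was fitted over all 34 (correlation 0.338), which called 6792 genes.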
